A study of Pistacia chinensis with 8 samples.

Results

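The miR167 family was followed in small RNA libraries of Chinese pistache (Pistacia chinensis), which has dioecious and monoecious trees. The libraries were made from inflorescence buds. The deposited table named miRNAs after their closest known relatives in other plants, and 17 of its 471 rows carried a miR167 name. These 17 rows were taken by name, with earlier results of these data known. Buds were bisexual or monoecious female, both from strain T2, male from strain X1, or female from strain C1, and each sex type was sampled at stage C and at stage B of floral development. Each of the 8 combinations was 1 library, so no group had a replicate. The labels do not say how many trees or buds went into a library, and they do not define the stages further. Sex type was confounded with strain except between bisexual and monoecious female buds. Buds hold several tissues, and a change in the make-up of the bud cannot be told apart from a change in miRNA per cell.

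miR167 pairs with transcripts of the auxin response factors ARF6 and ARF8 and directs their cleavage. In Arabidopsis thaliana these transcription factors are needed for elongation of stamen filaments, opening of anthers and maturation of the gynoecium. The hairpin precursor yields the guide strand from its 5p arm, and the partner strand from the 3p arm is normally degraded. Rows are named here as in the table, where the prefix gives the species of the matching entry (ath for Arabidopsis thaliana, gma for soybean, ptc for poplar, vvi for grapevine), and their sequences were not used here.

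Bisexual buds at stage B had 160129 reads over all miRNA rows, and the other 7 libraries had 419169 to 1159015. A count of 3 reads, taken as the limit that a count of 0 allows, was worth 18.7 counts per 1000000 miRNA reads (CPM) in that bisexual library and 2.59 to 7.16 CPM in the others. Levels are given as CPM of the library total, with no length term. For tests the libraries were scaled by TMM factors, which were 1.22 to 1.32 at stage C and 0.686 to 1.02 at stage B. Counting intervals are exact 95% intervals. No molecular identifiers are stated, so reads may be copies of 1 molecule, and the intervals and limits hold for counting error alone.

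One row led the family, and 5 distinct rows without a 3p name followed it. ath-miR167a-5p held 5495 reads over all libraries and was the most read miR167 row in 7 of 8 libraries, while in bisexual buds at stage B it tied with the 3p row aly-miR167b-3p at 71 reads. Next came ath-miR167d with 3021 reads, ptc-miR167f-5p with 3020, vvi-miR167c with 2556, gma-miR167h with 2459 and gma-miR167i with 1713 reads. The only well-read 3p name was aly-miR167b-3p, with 1113 reads. bna-miR167d and osa-miR167d-5p held nearly the reads of ath-miR167d, and gra-miR167c nearly those of ptc-miR167f-5p, within 5% or 2 reads in every library, so these 10 rows made 7 distinct ones. The osa name carries a 5p arm and the ath and bna names carry none, although their counts were nearly equal. The other 7 rows did not reach 10 reads in 2 libraries. They were sly-miR167b-5p with 20 reads in all, ath-miR167c-5p with 8, tae-miR167b and stu-miR167c-3p with 2 each, and aqc-miR167, ppt-miR167 and ptc-miR167h-5p with 1 each. Of the 17 names, 6 ended in 5p, 2 in 3p and 9 gave no arm.

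With near-identical rows counted once, miR167 ranked 6 of 67 named families by reads. It took 0.959% of the reads of distinct rows in bisexual, 1.17% in male, 0.453% in monoecious female and 0.392% in female buds at stage C. At stage B it took 0.234% in bisexual, 0.517% in male, 0.351% in monoecious female and 0.332% in female buds. These shares still count a read more than once where rows that are not near-identical share it, which could not be settled from counts. In every library ath-miR167d, vvi-miR167c, gma-miR167h and gma-miR167i came in that order or tied, and none of them exceeded ath-miR167a-5p. Whether these rows share reads was not tested, so they are not taken as independent measurements.

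**Figure D1:**
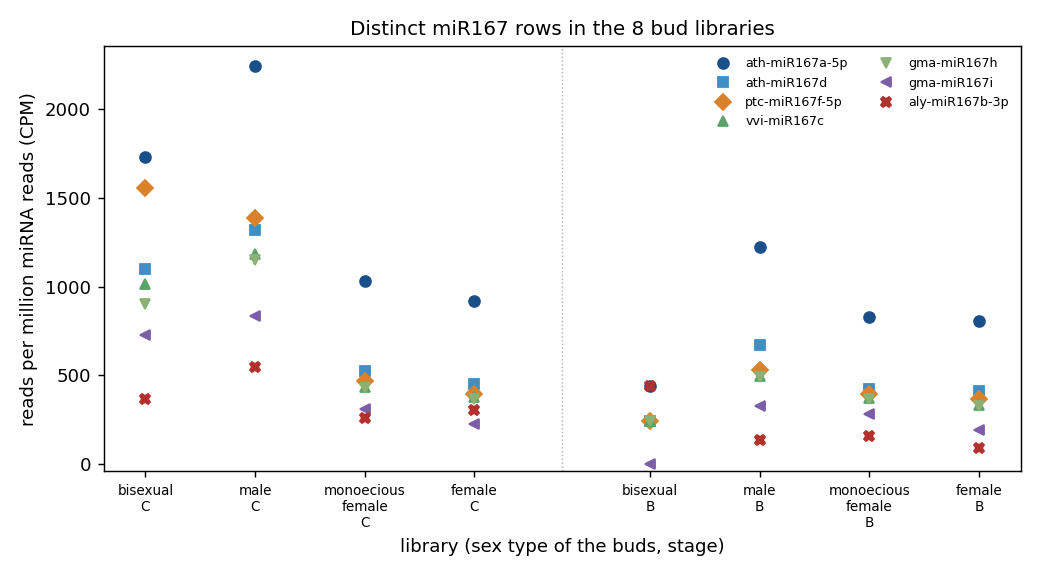
Level of the 7 distinct miR167 rows (CPM, vertical axis) in each library, stage C on the left and stage B on the right; each point is 1 row in 1 library. ath-miR167a-5p peaks at 2245 CPM in male buds at stage C, and the 3p row meets it in bisexual buds at stage B, at 443 CPM.

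The stamen-bearing buds held most miR167 at stage C. ath-miR167a-5p stood at 1731 CPM (853 reads) in bisexual and 2245 CPM (941 reads) in male buds at stage C, against 1035 CPM (530 reads) in monoecious female and 919 CPM (435 reads) in female buds. At stage B its level was 443 CPM (71 reads) in bisexual and 1225 CPM (1053 reads) in male buds, against 827 CPM (679 reads) in monoecious female and 805 CPM (933 reads) in female buds. Male buds were above both pistillate bud types at both stages, while bisexual buds were above them at stage C and below them at stage B. In the order of the 8 levels, male and bisexual buds at stage C and male buds at stage B came first and bisexual buds at stage B last. Between these lay monoecious female buds at stage C, female buds at stage C, monoecious female buds at stage B and female buds at stage B. The first 3 of these were 1.13, 1.11 and 1.03 times the next, with intervals of 0.990 to 1.28, 0.983 to 1.26 and 0.929 to 1.14 that all included 1. Female buds at stage B were 1.82 times bisexual buds at stage B (1.43 to 2.35).

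At stage C both stamen-bearing libraries lay above both pistillate libraries in 7 of 7 distinct miR167 rows. The same held for 15.9% of the 207 distinct rows tested over the whole table. With TMM-scaled levels it held for 7 of 7 miR167 rows and 12.6% of all. Without the bisexual library, male buds alone lay above both pistillate libraries at stage C in 7 of 7 miR167 rows, beside 35.7% of all rows by CPM and 33.3% by TMM-scaled levels. At stage B, 0 of 7 miR167 rows met the rule, with 14.0% of all rows by CPM and 7.25% by TMM-scaled levels. Because 6 of the 7 rows may share reads, these counts do not weigh as 7 separate observations.

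ptc-miR167f-5p showed the widest gap between bud types at stage C. It had 1556 CPM in bisexual and 1388 CPM in male buds at stage C, against 469 CPM in monoecious female and 395 CPM in female buds. gma-miR167i had 728 CPM in bisexual and 837 CPM in male buds at stage C, against 312 CPM in monoecious female and 226 CPM in female buds. The 3p row aly-miR167b-3p had the narrowest gap, with 365 CPM in bisexual and 549 CPM in male buds at stage C, against 262 CPM in monoecious female and 306 CPM in female buds. The groups did not overlap in any of the 3 rows. For aly-miR167b-3p this rested on bisexual buds at 1.19 times the female level at stage C (0.953 to 1.495), an interval that included 1.

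In the fit over both stages, the comparison of stamen-bearing with pistillate buds called 0 of the 10 tested miR167 rows, and 0% of all 248 rows tested were called. edgeR's quasi-likelihood test was used with additive terms for stage and sex type, with p-values adjusted by Benjamini-Hochberg over all rows. With 1 library per sex type and stage this model measures spread by how far the stages disagree between sex types, on 3 residual degrees of freedom, and not by replicate trees. The log2 change was 0.27 (SE 0.46) for ath-miR167a-5p, 0.71 (SE 0.59) for ptc-miR167f-5p and 0.69 (SE 0.44) for aly-miR167b-3p, and 0 of the 10 rows passed 0.05 before adjustment, beside 12 of all 248 rows. DESeq2 called 0 miR167 rows in this and the other 4 comparisons, with 0.555 as its lowest adjusted p for a miR167 row. In a fit of the 207 distinct rows alone the median over the 7 miR167 rows was 0.64, beside 0.02 over all. The summed family had 0.43 (SE 0.53, adjusted p = 0.833), with 0% of 96 summed families and predicted rows called. Without the bisexual library of stage B the summed family had 0.96 (SE 0.32), the bisexual level then coming from stage C alone. It had -0.10 without that of stage C and -0.04 without the female library of stage C. The difference between the 2 flower classes in their stage change was 1.81 for the summed family (SE 0.97, edgeR adjusted p = 1), which did not pass.

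**Figure D2:**
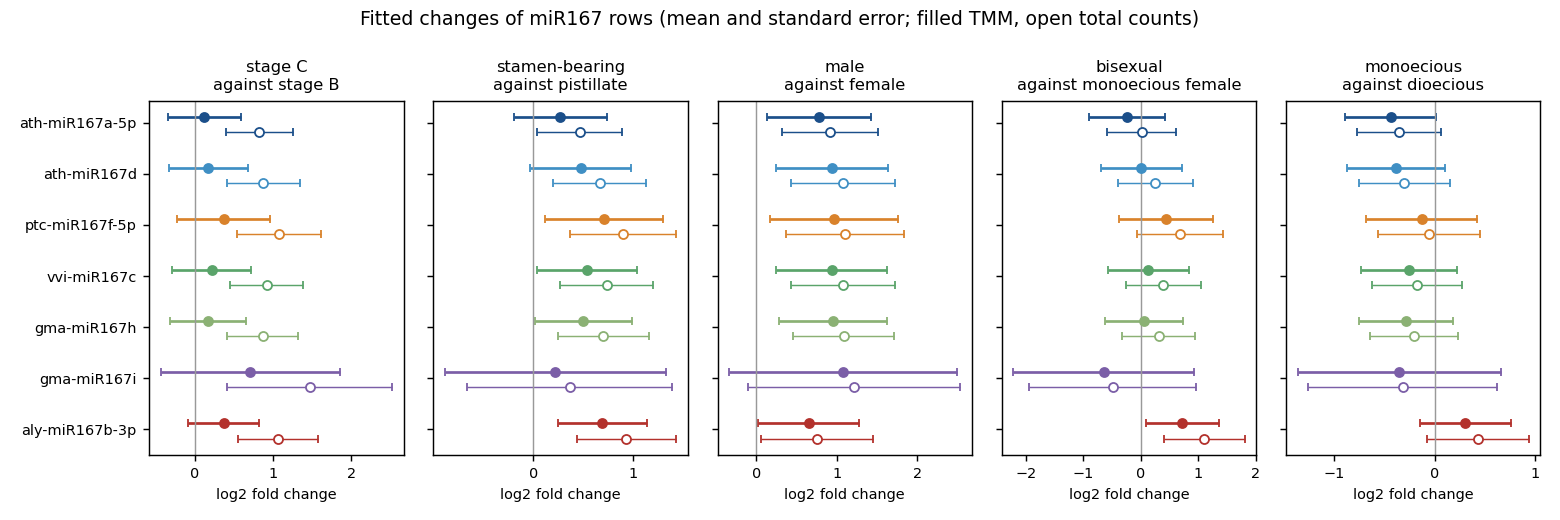
Log2 fold change of each distinct miR167 row (horizontal axis) in 5 comparisons, with its standard error as the bar; filled points use TMM factors and open points total counts alone. The stage comparison moves most between the scalings, and 0 of the 7 rows passed the adjusted test in any panel.

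Male buds held more miR167 than female buds at both stages. ath-miR167a-5p was 2.44 times the female level in male buds at stage C (95% counting interval 2.18 to 2.74) and 1.52 times at stage B (1.39 to 1.66). ptc-miR167f-5p was 3.52 times (2.98 to 4.17) at stage C and 1.45 times (1.27 to 1.66) at stage B. gma-miR167i was 3.71 times (2.98 to 4.65) at stage C and 1.73 times (1.44 to 2.07) at stage B. aly-miR167b-3p was 1.79 times (1.45 to 2.22) at stage C and 1.52 times (1.16 to 1.99) at stage B. In each of these rows the ratio was larger at stage C than at stage B.

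All 7 distinct miR167 rows were higher in male than in female buds at both stages, as were 37.7% of the 207 distinct rows. With TMM-scaled levels it was 7 of 7 miR167 rows and 31.4% of all. edgeR called 0 of 10 miR167 rows, with 0 before adjustment at 0.05, and 0% of all rows were called, with 12 before adjustment. The log2 change was 0.78 (SE 0.64) for ath-miR167a-5p and 0.96 (SE 0.79) for ptc-miR167f-5p, and in the fit of distinct rows the median over the 7 miR167 rows was 1.03, beside 0.09 over all. The summed family had 0.56 (SE 0.72, adjusted p = 0.903), with 0% of summed features called, and -0.10 without the female library of stage C. Male and female buds came from different strains, so sex cannot be told apart from strain here.

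Bisexual buds, compared with monoecious female buds of the same strain, had more miR167 at stage C and less of the rows without a 3p name at stage B. ath-miR167a-5p was 1.67 times the monoecious female level at stage C (1.50 to 1.87) and 0.536 times at stage B (0.414 to 0.686). ptc-miR167f-5p was 3.32 times (2.87 to 3.86) at stage C and 0.617 times (0.431 to 0.862) at stage B. gma-miR167i was 2.33 times (1.93 to 2.83) at stage C, while at stage B it had 0 reads in bisexual against 232 reads in monoecious female buds. At the limit of 3 reads this would be 0.0663 times the monoecious female level. The 3p row went another way, at 1.40 times (1.11 to 1.76) at stage C and 2.80 times (2.07 to 3.77) at stage B.

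With the stages disagreeing, the fitted changes were small beside their errors. ath-miR167a-5p had -0.24 (SE 0.66), ptc-miR167f-5p 0.45 (SE 0.82) and aly-miR167b-3p 0.73 (SE 0.63). edgeR called 0 of 10 miR167 rows, with 0 before adjustment at 0.05, and 0% of all rows, with 19 before adjustment. In the fit of distinct rows total counts alone shifted the median of all rows by 0.13, and relative to that median the 7 miR167 rows had a median of 0.25 with TMM factors and 0.21 with total counts. The summed family had 0.30 (SE 0.74, adjusted p = 0.861) with 0% of summed features called. It had 1.27 without the bisexual library of stage B and -1.27 without that of stage C, neither of which passed. At the level of rows, leaving out the bisexual library of stage C made gma-miR167i pass as lower in bisexual than in monoecious female, in stamen-bearing than in pistillate and in monoecious than in dioecious buds (edgeR adjusted p = 0.00263, 0.0163 and 0.00325). Bisexual buds then had 0 reads of this row, so its fitted size is not given. The numbers of rows called over the whole table were 54, 42 and 31 in the same 3 comparisons without that library, against 0, 0 and 1 with it.

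Monoecious buds were not set apart from dioecious ones in the fit. The log2 change of monoecious against dioecious buds was -0.44 (SE 0.46) for ath-miR167a-5p, -0.13 (SE 0.55) for ptc-miR167f-5p and 0.31 (SE 0.45) for aly-miR167b-3p. edgeR called 0 of 10 miR167 rows, with 0 at an unadjusted p under 0.05, beside 0.403% of all rows. The shift of the median of all rows with total counts was 0.11 here, and relative to that median the 7 miR167 rows had a median of -0.47 on both scales. The summed family had -0.55 (SE 0.51, adjusted p = 0.633), beside 2.08% of summed features called. Without the bisexual library of stage C it was -1.46 (SE 0.34), where bisexual buds are represented by stage B alone. Calls were also more frequent over the whole table without that library. The stage change of the summed family in monoecious against dioecious buds differed by 1.16 (SE 1.07, adjusted p = 0.754) and did not pass. Among pistillate buds, ath-miR167a-5p was 1.13 times the female level in monoecious female buds at stage C (0.990 to 1.28) and 1.03 times at stage B (0.929 to 1.14), both intervals including 1. gma-miR167i was higher in monoecious female buds, at 1.38 times (1.08 to 1.78) at stage C and 1.48 times (1.23 to 1.79) at stage B. aly-miR167b-3p was 0.854 times (0.670 to 1.09, including 1) at stage C and 1.75 times (1.34 to 2.28) at stage B.

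Between the stages the family did not pass the test, and the direction of its summed change depended on scaling. ath-miR167a-5p averaged 1482 ± 622 CPM at stage C and 825 ± 320 CPM at stage B (SD, n = 4 libraries, 1 of each sex type). In TMM-scaled levels it averaged 1159 ± 461 CPM at stage C and 1088 ± 477 CPM at stage B. By library totals, stage C was 3.90 times stage B in bisexual, 1.83 times in male, 1.25 times in monoecious female and 1.14 times in female buds. With TMM factors the same ratios were 3.01, 1.10, 0.730 and 0.627. By CPM, stage C exceeded stage B in 4 of 4 sex types in 6 of 7 distinct miR167 rows and in 38.6% of all distinct rows. With TMM factors this held in 0 of 7 miR167 rows and in 21.7% of all. The exception by CPM was aly-miR167b-3p, which in bisexual buds was 0.824 times its stage B level at stage C (0.623 to 1.10).

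edgeR called 0 of 10 miR167 rows between stages, with 0 at an unadjusted p under 0.05, while 19.0% of all rows were called. The log2 change was 0.12 (SE 0.47) for ath-miR167a-5p, 0.37 (SE 0.59) for ptc-miR167f-5p and 0.37 (SE 0.46) for aly-miR167b-3p. In the fit of distinct rows, total counts alone shifted the median change of all rows by 0.87. Relative to that median, the median of the 7 miR167 rows was 0.13 with TMM factors and 0.09 with total counts. The summed family had -0.17 (SE 0.54, adjusted p = 0.837), beside 21.9% of summed features called, and 0.95 with total counts alone. Leaving out the bisexual library of stage B or of stage C gave -0.74 and -0.76. Leaving out both gave -0.78, which was past the threshold (edgeR adjusted p = 0.0451). They are not separate results, since a sex type left with 1 library adds nothing to the stage change except through the scaling. The rows did not show a fall of that size. Without the bisexual library of stage B, the distinct rows without a 3p name had -0.12 to -0.0053, and aly-miR167b-3p had 0.91. The fit of summed features took its own TMM factors, so its scale differs from that of the row fit. For the summed family, leaving out a female library gave 0.22 without that of stage B and 0.43 without that of stage C. Leaving out a monoecious female library gave 0.07 without that of stage B and -0.012 without that of stage C.

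The proportions among the miR167 rows varied between libraries. ath-miR167d held 63.4% as many reads as ath-miR167a-5p in bisexual, 58.9% in male, 50.8% in monoecious female and 49.4% in female buds at stage C. At stage B the figures were 54.9% in bisexual, 54.7% in male, 51.4% in monoecious female and 51.2% in female buds. ptc-miR167f-5p spread more widely, at 89.9% of ath-miR167a-5p in bisexual, 61.9% in male, 45.3% in monoecious female and 43.0% in female buds at stage C. At stage B it held 54.9% in bisexual, 43.3% in male, 47.7% in monoecious female and 45.6% in female buds.

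The order of ptc-miR167f-5p and ath-miR167d was not the same in all libraries. ptc-miR167f-5p was 1.42 times ath-miR167d in bisexual (1.27 to 1.59) and 1.05 times in male buds at stage C (0.934 to 1.18), against 0.892 times in monoecious female (0.747 to 1.07) and 0.870 times in female buds (0.711 to 1.06). At stage B it was 1.0 times in bisexual (0.625 to 1.60), on 39 reads each, 0.792 times in male (0.699 to 0.897), 0.928 times in monoecious female (0.796 to 1.08) and 0.889 times in female buds (0.778 to 1.02). Of the 8 intervals, that of the bisexual library of stage C was the only one wholly above 1, and that of the male library of stage B the only one wholly below 1. The intervals treat the 2 rows as holding different reads. Its near-identical partner gra-miR167c had 767 reads in that library too, so the 2 names are 1 observation.

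gma-miR167i was highest in proportion in the stamen-bearing libraries of stage C and had no reads in the bisexual library of stage B. It held 42.1% of the ath-miR167a-5p count in bisexual, 37.3% in male, 30.2% in monoecious female and 24.6% in female buds at stage C. At stage B it held 26.9% in male, 34.2% in monoecious female and 23.7% in female buds. In bisexual buds at stage B it had 0 reads against 71 of ath-miR167a-5p, which allows at most 4.23%, and against 39 of gma-miR167h, which allows at most 7.69%. In the other 7 libraries gma-miR167i held 0.585 to 0.805 times the reads of gma-miR167h.

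In that library 6 rows, namely ath-miR167d, bna-miR167d, gma-miR167h, gra-miR167c, ptc-miR167f-5p and vvi-miR167c, had exactly 39 reads each. In the other 7 libraries ath-miR167d, ptc-miR167f-5p, vvi-miR167c and gma-miR167h had 4 different counts.

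**Figure D3:**
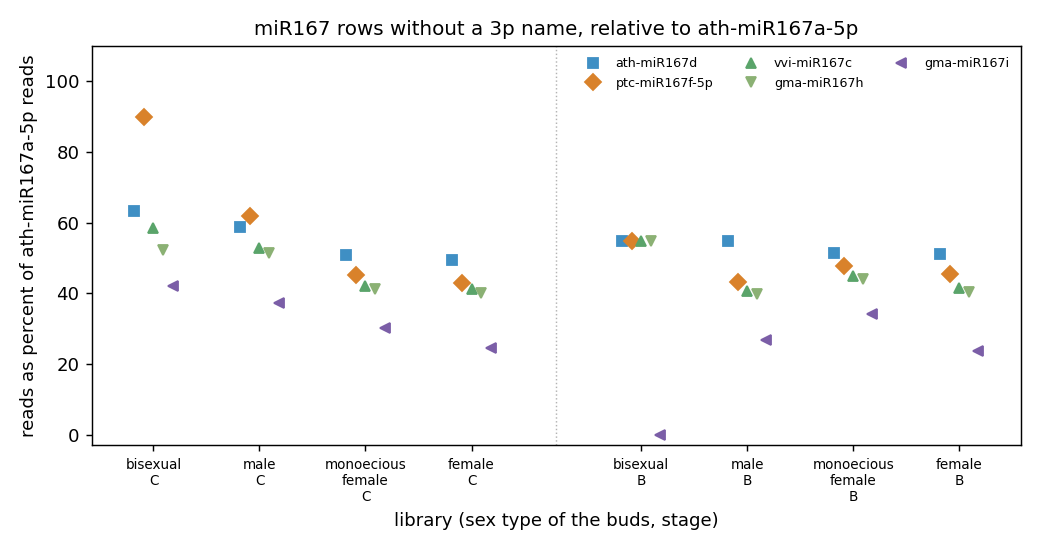
Reads of 5 distinct miR167 rows as percent of the ath-miR167a-5p reads of the same library (vertical axis), stage C on the left and stage B on the right; points are spread sideways for legibility. ptc-miR167f-5p reaches 89.9% in bisexual buds at stage C, and gma-miR167i is at 0 in bisexual buds at stage B.

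Row proportions were tested over the whole table with edgeR's differential-usage test, with families in place of genes, which asks whether a row changed relative to the other rows of its family. It called 0 of 7 distinct miR167 rows in each of the 5 comparisons, with 0 at an unadjusted p under 0.05. Of the 133 rows tested, 0% were called between stages, 3.01% between stamen-bearing and pistillate buds, 0% between male and female, 3.76% between bisexual and monoecious female and 0.752% between monoecious and dioecious buds. For ptc-miR167f-5p the change relative to its family was 0.22 between stamen-bearing and pistillate buds and 0.39 between bisexual and monoecious female buds, on the log2 scale. Without the bisexual library of stage C the same edgeR test, then on 126 rows, passed 2 miR167 rows. Relative to its family, aly-miR167b-3p was then higher in bisexual than in monoecious female buds by 2.30 (SE 0.66, adjusted p = 0.0191) and in monoecious than in dioecious buds by 1.49 (SE 0.44, adjusted p = 0.0328). gma-miR167i was then lower in stamen-bearing than in pistillate, in bisexual than in monoecious female and in monoecious than in dioecious buds (edgeR adjusted p = 0.0190, 0.00681 and 0.0221). Bisexual buds were there represented by the stage B library alone, with 0 reads of gma-miR167i, so its fitted size is not given. Without that library 14, 21 and 19 of the 126 rows were called in these 3 comparisons, so calls were also more frequent over the whole table.

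The 3p row stood high in the bisexual library of stage B, where the other distinct rows were at their lowest. aly-miR167b-3p had 365 CPM (180 reads) in bisexual, 549 CPM (230 reads) in male, 262 CPM (134 reads) in monoecious female and 306 CPM (145 reads) in female buds at stage C. At stage B it had 443 CPM (71 reads) in bisexual, 137 CPM (118 reads) in male, 158 CPM (130 reads) in monoecious female and 90.6 CPM (105 reads) in female buds. By CPM the 4 stage C libraries and the bisexual library of stage B were the highest. With TMM-scaled levels the monoecious female library had 215 CPM at stage C and 223 CPM at stage B, so the order was not kept.

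Set against ath-miR167a-5p, the 3p row was equal in count in bisexual buds at stage B, with 71 reads each, a ratio of 1.0 (0.709 to 1.41). In the other stage B libraries the ratio was 0.112 in male (0.0919 to 0.136), 0.192 in monoecious female (0.158 to 0.231) and 0.113 in female buds (0.0911 to 0.138). At stage C it was 0.211 in bisexual (0.179 to 0.248), 0.244 in male (0.211 to 0.283), 0.253 in monoecious female (0.208 to 0.306) and 0.333 in female buds (0.274 to 0.403). Leaving out bisexual buds at stage B, the ratio averaged 0.260 ± 0.052 at stage C (SD, n = 4 libraries) and 0.139 ± 0.046 at stage B (SD, n = 3 libraries). The ratio of the less-read to the more-read arm of miR396 was likewise 0.452 to 0.730 at stage C and 0.261 to 0.282 in the same 3 libraries of stage B, so the gap was not particular to miR167. miR166 had 0.01102 to 0.02475 against 0.002472 to 0.01091. miR156 went the other way, at 0.643 to 0.929 against 1.67 to 2. Counting intervals were not computed for these other families, and some of their ratios may rest on few reads. The stages overlapped in miR159, miR168 and miR390, and miR408 was at 1 in these libraries. With the bisexual library of stage B included, the miR167 ratio averaged 0.354 ± 0.432 at stage B (SD, n = 4 libraries) and the stages overlapped. The 3p-named reads were also set as a share of miR167 reads with near-identical rows counted once. This share was 4.93% in bisexual, 6.34% in male, 7.54% in monoecious female and 10.1% in female buds at stage C. At stage B it was 23.8% in bisexual, 3.54% in male, 5.60% in monoecious female and 3.58% in female buds.

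A high reading of the less-read arm in the bisexual library at stage B was also seen in other families. Of 8 families with well-read rows of both arm names, 6 gave a ratio of the less-read to the more-read arm in that library, and in 5 of the 6 the ratio was highest there among all libraries. These were miR166 at 81.6 times the median of the other 7 libraries, miR159 at 12.4 times, miR167 at 4.74 times, miR168 at 3.04 times and miR396 at 2.43 times. miR390 was lower there, at 0.126 times. Its ratio in that library was 0.00602 and that of miR159 was 0.00319, and the reads behind such low ratios may be few. Counting intervals were not computed for families other than miR167. miR156 and miR408 gave no ratio there. In the other 7 libraries the miR408 ratio was 1 throughout, so its 5p and 3p names held equal counts. Whether rows of different arm names share reads was not tested. The 5 families were chosen after their values were seen. This library also had the fewest reads, and the part of depth or RNA quality in the arm ratio was not tested.

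**Figure D4:**
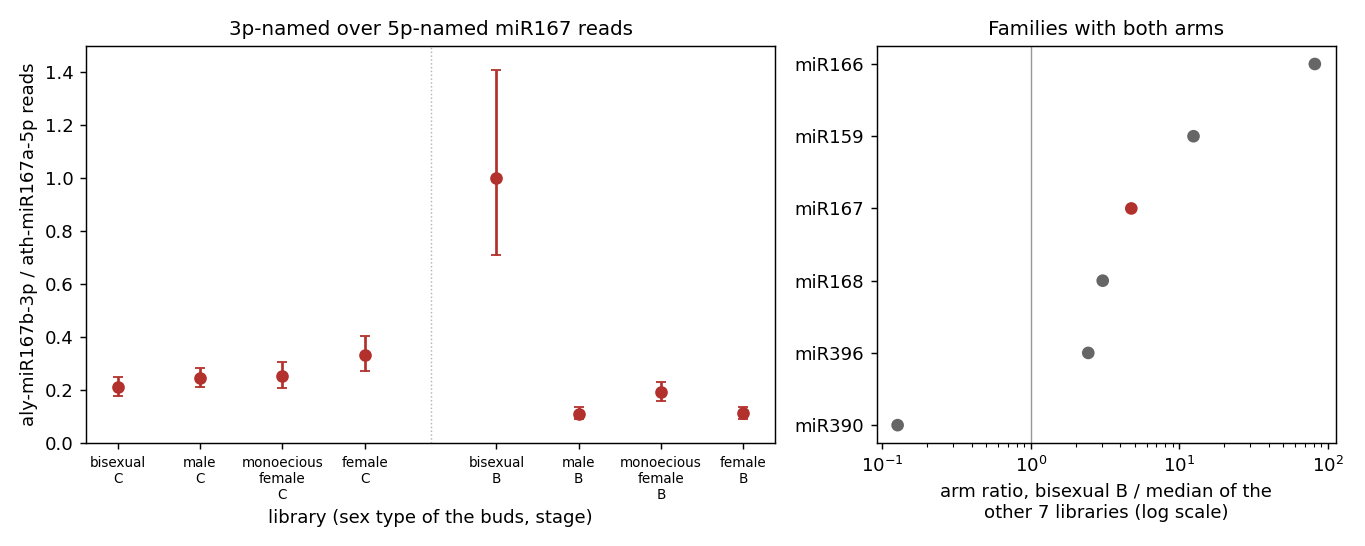
Left, ratio of aly-miR167b-3p to ath-miR167a-5p reads (vertical axis) by library, with exact 95% counting intervals as bars. Right, for the 6 families with a value, the ratio of the less-read to the more-read arm in bisexual buds at stage B over the median of the other 7 libraries (horizontal log axis); miR167, in red, is at 4.74 and 5 of the 6 lie above 1.

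The rows whose levels ran most like those of ath-miR167a-5p all belonged to miR160, the family that targets other auxin response factors (ARF10, ARF16 and ARF17 in Arabidopsis thaliana). Among 135 distinct rows outside the family with at least 200 reads in all, Pearson's r of log2(TMM CPM + 1) over the 8 libraries was 0.92 for osa-miR160e-5p, 0.89 for ath-miR160a-5p and 0.88 for csi-miR160. Without the bisexual library of stage B these were 0.91, 0.71 and 0.67 over 7 libraries. Spearman's rho over 8 libraries was 0.88, 0.79 and 0.69. With total counts the 4 highest were ath-miR160a-5p, ath-miR398a-3p, csi-miR160 and osa-miR160e-5p, at 0.92, 0.92, 0.92 and 0.87. The libraries share depth and scaling across rows, and ath-miR160a-5p and csi-miR160 had nearly equal counts, so these values are a description.

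osa-miR160e-5p had 168 CPM (83 reads) in bisexual and 134 CPM (56 reads) in male buds at stage C, against 50.8 CPM (26 reads) in monoecious female and 33.8 CPM (16 reads) in female buds. At stage B it had 0 reads in bisexual and 87.3 CPM (75 reads) in male buds, against 58.5 CPM (48 reads) in monoecious female and 42.3 CPM (49 reads) in female buds. The row was chosen for its likeness to ath-miR167a-5p over these libraries, so a shared pattern is no separate result.

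**Figure D5:**
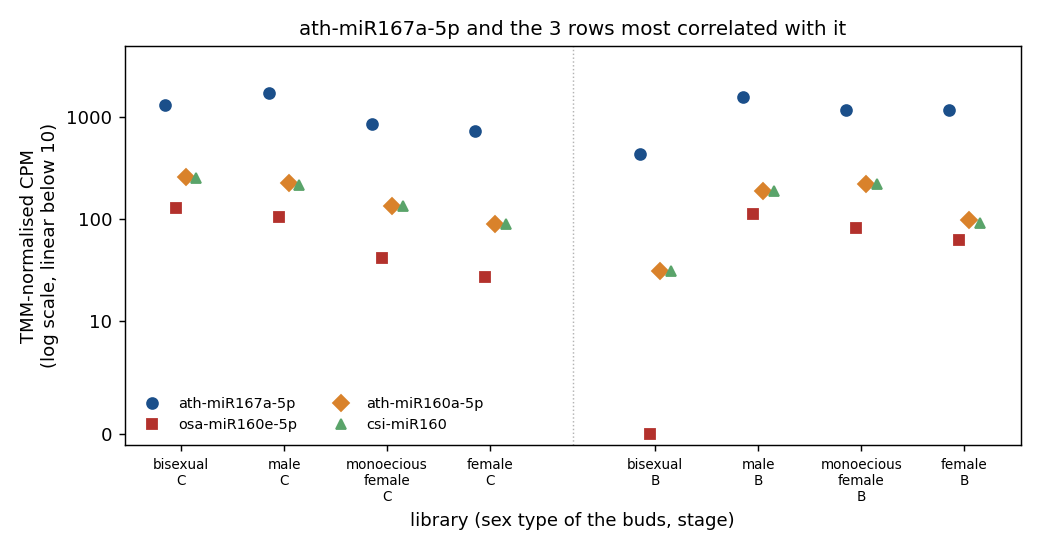
TMM-normalised CPM (vertical axis, logarithmic above 10) of ath-miR167a-5p and of the 3 rows outside the family with the highest correlation to it, by library. All 4 rows are lowest in bisexual buds at stage B, where osa-miR160e-5p is at 0.

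The other auxin miRNAs were counted as a list of miR160, miR390, through which TAS3 transcripts yield small RNAs against auxin response factors, and miR393, which targets TIR1/AFB auxin receptors. Of 13 tested rows, 3 rose and 0 fell at stage C against stage B, 2 of them miR390 rows and 1 a miR393 row, while 19.0% of all rows were called. With total counts alone 6 list rows were called, beside 58 rows over the whole table. The count of list rows called was not kept when 1 library was left out. The number called over the whole table moved with it, so this was not particular to the list. In the other 4 comparisons 0 of 13 rows passed. The summed miR393 family rose by 3.16 at stage C (SE 0.65, edgeR adjusted p = 0.0112). This call was not kept without the monoecious female library of stage C (3.35) or of stage B (3.44). These 2 fits are not separate results, since the monoecious female library that remains adds nothing to the stage change except through the scaling. Without that of stage B, calls were also fewer over the whole table. Summed miR160 had -0.58 (SE 0.72, edgeR adjusted p = 0.609) and summed miR390 0.92 (SE 0.47, edgeR adjusted p = 0.173).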

How the data were processed

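Inflorescence buds of Pistacia chinensis were used for small RNA sequencing, 1 library for each of 4 sex types at each of 2 stages. Libraries were made from total RNA with an NEB small RNA kit, per the labels' protocols. The deposited table held raw read counts made by the authors for 471 miRNA rows. It also held TPM values by the authors, which equalled the counts scaled to a column total of 1000000 within 4.29e-05 and were not used further. CASAVA 1.8 and Bowtie were used, per the submitters' processing notes. Neither a genome build nor a miRBase release is given in the sources used here. Whether a read was counted on more than 1 row was not tested.

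Counts were tested with edgeR 4.0.16 (R 4.3.3, limma 3.58.1), using TMM factors, a minimum of 10 reads in 2 or more libraries, additive terms for stage and sex type and Benjamini-Hochberg adjustment over all rows at 0.05. The common dispersion was 0.268. Tests of stage by class had 2 residual degrees of freedom. Standard errors are the log2 change over the square root of F. For family sums, rows whose counts differed by at most 5% or 2 reads in each of the libraries were counted once. TMM factors were computed anew for the summed features, so summed and row changes are not on the same scale. P-values measure only the disagreement of stages between sex types, and the labels do not say whether libraries came from separate trees. The fits were also run on simulated data, whose outcome is not given here and is not used as support.

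Named were every miR167 row and the 3 rows outside the family most correlated with its most-read row, among rows with at least 200 reads, on log2(TMM CPM + 1). The members, lists and rules were chosen with earlier results of these data known. Alternatives were DESeq2 1.42.0, RLE factors, total counts, a minimum of 50 reads, no filter, other treatments of shared rows, a reduced model, and leaving out each library or both bisexual libraries. The TMM scale for counts of rows whose groups do not overlap, and the count without the bisexual library of stage C, were chosen after seeing the data, as were the alternatives for the auxin list.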

Additional observations from a re-analysis of the deposited data

Results flagged for a closer look

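Within a stage, 26 sets of 4 libraries were examined for a library far from the other 3 (Dixon's criterion at 95%), and 1 was found. It was the ratio of aly-miR167b-3p to ath-miR167a-5p at stage B, which was 1.0 in bisexual buds, far above the other 3 libraries. Chance flags about 1 in 20 such groups.

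Of 28 pairs of ratios between bud types (7 rows in 4 comparisons), 7 had 95% counting intervals wholly on opposite sides of 1 at the 2 stages, and these differences were not tested. Ratios with 0 reads in a library were not examined, as for gma-miR167i in bisexual against monoecious female buds. That ratio was 2.33 at stage C and, at the limit of 3 reads, 0.0663 at stage B. For bisexual against monoecious female buds the ratio at stage C was above 1 and that at stage B below 1 in 5 rows. The ratio at stage C over that at stage B was 3.12 for ath-miR167a-5p, 3.65 for ath-miR167d, 5.38 for ptc-miR167f-5p, 3.54 for vvi-miR167c and 3.18 for gma-miR167h. For bisexual against male buds it was 2.44 for ptc-miR167f-5p, again above 1 at stage C and below 1 at stage B. For aly-miR167b-3p it was 0.206, the bisexual level being below the male level at stage C and above it at stage B. All 7 involve the bisexual library of stage B, which had the fewest reads. Without bisexual buds, aly-miR167b-3p in monoecious female against female buds was 0.854 times at stage C (0.670 to 1.09) and 1.75 times at stage B (1.34 to 2.28), the interval at stage C including 1.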

How the results depend on the processing

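With 1 library per sex type and stage, leaving out 1 library removes a whole group. The fitted model already compares the stages within each sex type, and the labels give no replicate numbers for a further block. The depth of the bisexual library at stage B limits every value drawn from it. Of 776 values under an alternative setting, 660 kept their direction and side of the threshold, or moved by less than the limits set for counts and shares. On the log2 scale, the stage change of the summed family was 0.010 with RLE factors, 0.95 with total counts, 0.31 with a minimum of 50 reads, 0.010 with DESeq2 and -0.78 without both bisexual libraries (edgeR adjusted p = 0.0451). Without those libraries the stage change was -0.15 for ath-miR167a-5p, -0.14 for ath-miR167d, -0.067 for gma-miR167h, -0.032 for gma-miR167i, -0.034 for ptc-miR167f-5p and -0.057 for vvi-miR167c. For bisexual against monoecious female buds ath-miR167a-5p had 0.018 with total counts, and ath-miR167d had -0.019 with no filter. Rows called by DESeq2 numbered 11 for monoecious against dioecious, 3 for stamen-bearing against pistillate and 10 for bisexual against monoecious female buds, and 3 were called for monoecious against dioecious buds with a minimum of 50 reads. Without both bisexual libraries, 108 were called between stages and 1 for male against female buds. With all rows counted, or only exactly equal rows counted once, the 3p-named share was 17.0% in bisexual buds at stage B and at most 7.07% in the other libraries, and ath-miR167a-5p took 15.5% to 21.6% of miR167 reads. Leaving out each library in turn gave ranges as follows. Rows called ranged from 0 to 112 between stages, 0 to 42 for stamen-bearing against pistillate, 0 to 3 for male against female, 0 to 54 for bisexual against monoecious female and 1 to 31 for monoecious against dioecious buds. The summed family ranged over -0.76 to 0.43, -0.10 to 0.96, -0.10 to 1.42, -1.27 to 1.27 and -1.46 to -0.077 in the same order of comparisons. The miR167 rows changed in proportion numbered 0 to 1 for stamen-bearing against pistillate, 0 to 2 for bisexual against monoecious female and 0 to 2 for monoecious against dioecious buds. In the stage comparison ath-miR167a-5p ranged over -0.35 to 0.40, ath-miR167d over -0.34 to 0.49, gma-miR167h over -0.26 to 0.47, gma-miR167i over -0.23 to 1.38, ptc-miR167f-5p over -0.23 to 0.78 and vvi-miR167c over -0.25 to 0.54. For stamen-bearing against pistillate buds ath-miR167a-5p ranged over -0.27 to 0.71, ath-miR167d over -0.13 to 0.95 and gma-miR167i over -4.70 to 1.07. For male against female buds aly-miR167b-3p ranged over -0.054 to 1.15. For bisexual against monoecious female buds aly-miR167b-3p ranged over -0.074 to 1.30, ath-miR167a-5p over -1.36 to 0.55, ath-miR167d over -1.25 to 0.86, gma-miR167h over -0.96 to 0.79, gma-miR167i over -10.64 to 0.87, ptc-miR167f-5p over -1.07 to 1.44 and vvi-miR167c over -0.98 to 0.93. For monoecious against dioecious buds aly-miR167b-3p ranged over -0.061 to 0.66, gma-miR167h over -0.81 to 0.022, gma-miR167i over -5.43 to 0.28, ptc-miR167f-5p over -0.92 to 0.29 and vvi-miR167c over -0.83 to 0.077. The lowest gma-miR167i values come from 0 reads in the remaining bisexual library and depend on the prior count. The cause of these changes was not tested.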
